A study of Mus musculus with 9 samples.

Results

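The yNSCs, cells with neural stem cell properties made from mouse neurons by forced expression of YAP, were compared with cultures of the neurons they were derived from. The comparison used 6 of the 9 arrays of the series, 3 labelled yNSCs and 3 labelled neurons, each group with replicates A, B and C, and every gene with a named probe set (18193 genes). The neurons were cortical cultures in Neurobasal with B27, glutamine, antibiotics and AraC, a nucleoside that kills dividing cells. Per the methods, such cultures came from late embryos or newborn pups and were enriched for neurons rather than pure. The yNSCs were grown in DMEM/F12 with N2, EGF, bFGF, heparin, glutamine and antibiotics. They arose after lentiviral delivery of a doxycycline-dependent transactivator and a doxycycline-inducible wild-type YAP, first as spheres under doxycycline. Per the methods, such cells were afterwards passaged routinely without doxycycline. The third group of the series, native NSCs in the same medium as the yNSCs, entered the fit and is given beside some values. Medium and conversion differed together between yNSCs and neurons and cannot be told apart. The passage and doxycycline state of the yNSCs on the arrays and the fate of the vectors in them were not given in the sources used here.

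Neurons and neural stem cells live by different signals. A neuron receives transmitters and neuropeptides through receptors on its surface, releases peptides from dense-core granules, and no longer divides. A neural stem cell in culture is driven by mitogens that act on receptor tyrosine kinases and must build nucleotides, lipids and amino acids for each division. YAP is a transcriptional coactivator that binds DNA through TEAD factors and is held back by the Hippo pathway.

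Each value below is a log2 expression value of the probe set chosen for a gene, so that a difference of 1 is a 2-fold change, and 3 values in a row are those of replicates A, B and C. A gene is said to have risen or fallen in yNSCs when limma gave a Benjamini-Hochberg adjusted p under 0.05 over all genes and the difference was at least 2-fold. A group mean is called near background when it lies below the mean lower quartile of the arrays of its group, and the size of such a difference is uncertain. Levels of different genes come from different probes and are not compared, and they are added up only for the markers of other cell types. With 3 arrays in each group an exact permutation test cannot give a two-sided p below 0.1, and limma's test, which shares its variance estimate across genes, was used for the calls. The labels call A, B and C biological replicates without naming separate cultures or animals. The p-values weigh each difference against the spread between arrays within the 3 groups, and what that spread stands for is not known.

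The group labels were checked against marker genes. Tubb3, the neuronal beta III tubulin, read 12.08, 11.97 and 12.26 in neurons and 5.58, 5.81 and 5.73 in yNSCs (difference -6.40, SE 0.122, adjusted p = 2.37e-12). Rbfox3, which encodes the neuronal nuclear protein NeuN, read 11.42, 11.18 and 11.21 in neurons and 4.46, 4.61 and 4.66 in yNSCs (adjusted p = 1.58e-12). Nes, the gene of the progenitor filament nestin, read 7.48, 7.67 and 7.92 in neurons and 9.78, 9.73 and 9.91 in yNSCs (difference 2.12, adjusted p = 1.38e-08). The groups did not overlap for any of these genes, each moved as its label has it, and Nes was above background in the neuron cultures as well.

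Replicates were close to each other. Across genes, which are not independent replicates, arrays correlated at 0.992 to 0.993 within neurons, at 0.996 to 0.998 within yNSCs and at 0.852 to 0.858 between them. Array medians lay between 4.90 and 5.02 and lower quartiles between 3.42 and 3.73. The difference between 3′ and 5′ probe sets, a sign of RNA integrity, was -0.19 to -0.17 for Gapdh in neurons and -0.09 to -0.04 in yNSCs. For the beta-actin control it was 0.03 to 0.21 in neurons and 0.19 to 0.31 in yNSCs. In NSCs it was above that of every array of these groups, at 0.11 to 0.28 for Gapdh and 0.56 to 0.70 for beta-actin. The part of these shifts in single differences was not tested.

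In all, 3336 genes rose in yNSCs (18.3% of 18193) and 1993 fell (11.0%). A further 2958 were higher and 3088 lower with an adjusted p under 0.05 but below 2-fold. Of the genes that rose, 155 were near background in neurons, and of those that fell, 298 were near background in yNSCs. The groups did not overlap for 3336 of the genes that rose and 1992 of those that fell. Apart from the markers above, genes named by rule as called came only from these, so their lack of overlap was set in advance. Risers made up 62.6% of the calls, a share that came to 52.7% when each array's median was subtracted, a scaling under which the median difference over all genes was -0.193 in place of -0.007, and to 53.9% after another quantile normalization. The balance of gains and losses over all genes therefore depends on the scaling, and a list's counts are best read beside the 18.3% and 11.0% of all genes.

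**Figure D1:**
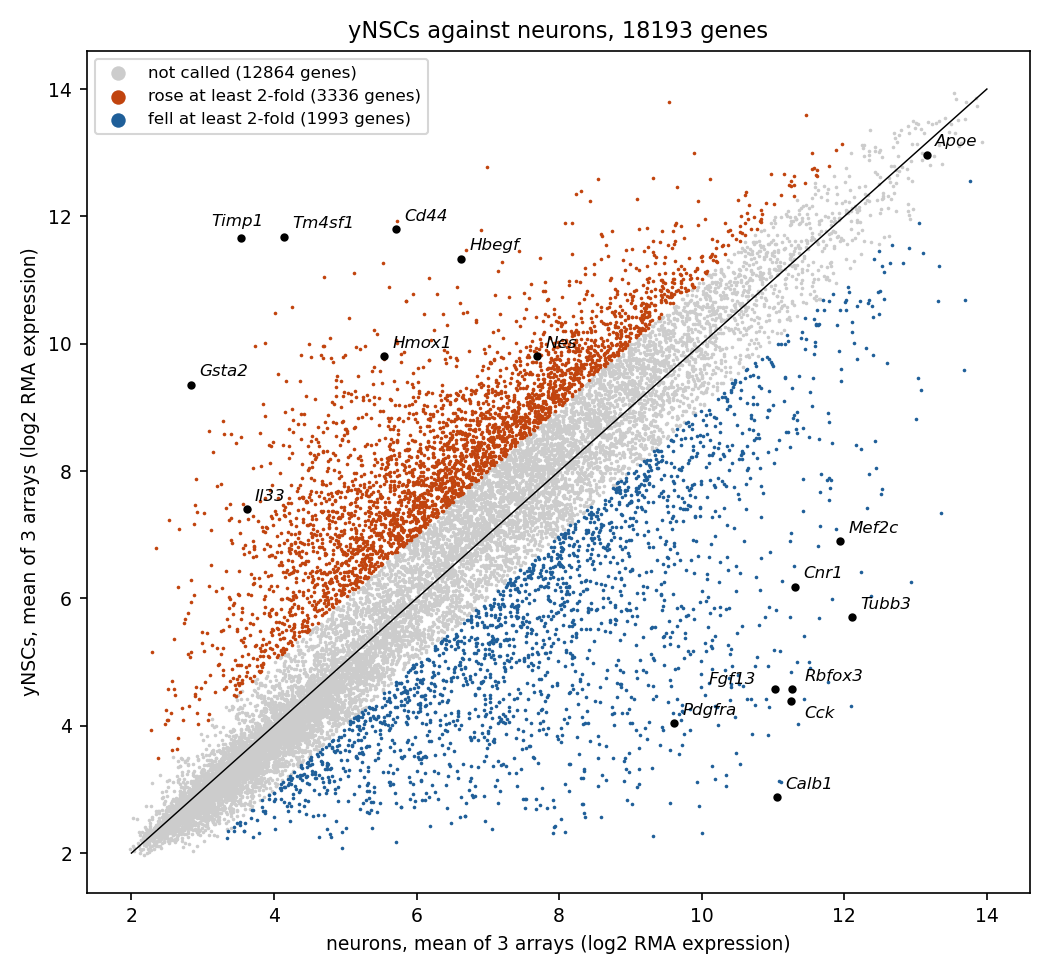
Mean log2 expression of each of 18193 genes in 3 yNSC arrays (vertical axis) against its mean in 3 neuron arrays (horizontal axis), with the 3336 genes that rose in orange, the 1993 that fell in blue and genes named in the text in black. Timp1 and Tm4sf1 lie far above the line of equal values, Calb1 and Rbfox3 far below it, and Apoe lies near it.

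The largest gains included secreted, membrane and actin-binding proteins. Timp1, a secreted inhibitor of matrix metalloproteinases, was near background in neurons at 3.32, 4.08 and 3.19 and stood at 11.67, 11.67 and 11.63 in yNSCs. It rose by 8.13 (SE 0.190, adjusted p = 7.83e-12), the largest rise of all genes, and no neuron array came near a yNSC array. Tm4sf1, a membrane protein of the L6 family related to tetraspanins, read 4.10, 4.12 and 4.19 in neurons and 11.62, 11.59 and 11.83 in yNSCs (difference 7.54, SE 0.140, adjusted p = 1.82e-12). Gsta2, a glutathione transferase, went from 2.54, 2.97 and 3.01, near background, to 9.33, 9.46 and 9.28 (difference 6.52, adjusted p = 1.21e-11). The other genes among the 12 largest rises were the serine protease gene Prss23 (6.48), Id1 (6.34), an inhibitor of basic helix-loop-helix factors, the vasoactive peptide gene Adm (6.32), the membrane protein gene Emp1 (6.24), the actin-binding protein gene Tagln (6.21), the caveolar coat gene Cavin1 (6.14), the hyaluronan receptor gene Cd44 (6.09), Tcim (5.99) and Igfbp3 (5.79), which encodes a carrier of insulin-like growth factors.

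The largest losses included calcium-handling genes of neurons. Calb1, a calcium buffer, read 11.11, 11.08 and 10.98 in neurons and 2.87, 2.68 and 3.09, near background, in yNSCs (difference -8.18, SE 0.119, adjusted p = 5.25e-13). The calcium sensors Vsnl1 (-7.32) and Hpcal4 (-7.22) and the calcium-dependent kinase gene Camk4 (-7.29) were also among the 12 largest falls, as was Syt1 (-7.77), the calcium sensor of transmitter release. So were Tenm2 (-8.0), a teneurin of synaptic adhesion, Tmem130 (-7.96), Neurod6 (-7.69), a transcription factor of cortical excitatory neurons, Grp (-7.13), which encodes gastrin-releasing peptide, Gucy1a1 (-7.11), a subunit of the nitric oxide receptor guanylate cyclase, Arpp21 (-7.08) and Sphkap (-7.08). Tenm2, Tmem130, Neurod6, Camk4, Hpcal4, Grp and Gucy1a1 were near background in yNSCs, like Calb1.

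The promoter sequences of 3 of the strongest gains are shown because YAP acts through TEAD factors and because growth factor medium is known to induce AP-1 factors. They are RefSeq windows of 300 bases on GRCm38.p6, most of which lies upstream of a start site, 5′ to 3′ on the strand of the gene, with capitals on matches to GGAATG (TEAD), TGANTCA (AP-1) or TGACNNNGC (antioxidant response element), searched on both strands. Timp1 (chrX:20869916-20870215, plus strand) has a TEAD match at position -247 from the start site, Tm4sf1 (chr3:57301939-57302238, minus strand) has none of the 3 motifs, and Emp1 (chr6:135362681-135362980, plus strand) has AP-1 matches at -145 and -25 and an antioxidant match at -182. Emp1 and its window were chosen after the matches were seen.
Timp1: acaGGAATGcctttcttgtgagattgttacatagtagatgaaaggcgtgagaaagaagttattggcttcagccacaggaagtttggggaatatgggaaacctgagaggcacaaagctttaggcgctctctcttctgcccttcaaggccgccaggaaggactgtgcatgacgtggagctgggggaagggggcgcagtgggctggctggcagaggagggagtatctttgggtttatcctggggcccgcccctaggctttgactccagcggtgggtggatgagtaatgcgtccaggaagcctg
Tm4sf1: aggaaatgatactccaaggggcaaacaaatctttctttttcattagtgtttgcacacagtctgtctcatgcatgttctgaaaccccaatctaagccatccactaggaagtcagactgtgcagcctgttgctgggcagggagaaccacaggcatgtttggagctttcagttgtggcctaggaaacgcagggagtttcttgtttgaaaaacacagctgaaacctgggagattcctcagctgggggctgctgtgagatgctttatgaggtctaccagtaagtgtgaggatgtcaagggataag
Emp1: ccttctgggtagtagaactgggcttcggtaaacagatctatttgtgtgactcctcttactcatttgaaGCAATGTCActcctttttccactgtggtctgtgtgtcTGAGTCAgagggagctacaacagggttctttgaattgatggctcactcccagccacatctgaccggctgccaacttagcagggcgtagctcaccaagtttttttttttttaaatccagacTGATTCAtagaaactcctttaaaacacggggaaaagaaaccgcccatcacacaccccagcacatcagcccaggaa
Such matches are common. GGAATG occurred in 14.7% of all 32851 windows of this length, TGANTCA in 7.81% and TGACNNNGC in 12.4%. Among the 18006 windows of the genes compared here, which are richer in G and C (median 58.3% against 52.7%), the shares were 13.2%, 6.35% and 13.8%. Among the 3408 windows of genes that rose, they were 12.8%, 6.07% and 14.1%, and among the 2104 windows of genes that fell they were 12.8%, 4.71% and 12.2%. In the 17 windows of 9 of the 12 largest rises that the table holds, 3, 3 and 2 windows had the TEAD, AP-1 and antioxidant motif. A match is a string of letters and shows no binding.

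Receptors were lost more often than they were gained. Of 276 genes on 9 lists of receptors and related membrane proteins, 57 fell (20.7%, against 11.0% of all genes) and 42 rose (15.2%, against 18.3%). The lists of metabotropic receptors, of Eph receptors and ephrins and of neuropeptide and monoamine receptors held many of the losses. The list of cytokine and TNF receptors, the longest, held the most gains by number (24.5% of its members). Tetraspanins and L6 proteins held the largest share of gains (29.6%).

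Of 40 measured receptors for neuropeptides, monoamines and cannabinoids 0 rose by limma (1 was higher at an unadjusted p under 0.05) and 13 fell, or 4 when the 40% of genes with the lowest mean were left out. Cnr1, the cannabinoid receptor through which neurons damp transmitter release, read 11.49, 11.20 and 11.23 in neurons and 6.31, 6.31 and 5.94 in yNSCs (difference -5.12, SE 0.127, adjusted p = 1.17e-11). Htr2c, a serotonin receptor, read 7.71, 7.53 and 7.77 in neurons and 2.63, 2.70 and 2.76, near background, in yNSCs (difference -4.97). Every yNSC array was far below every neuron array for both genes, and lack of overlap was a condition of naming them. The nociceptin receptor gene Oprl1 (-3.15) and the somatostatin receptor gene Sstr4 (-2.82) fell as well, whereas Adcyap1r1, the receptor of the peptide PACAP, was lower by less than 2-fold (-0.82, adjusted p = 8.21e-06) and Htr1b did not pass (0.06, adjusted p = 0.667), with 1 of its 2 probe sets called higher.

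Metabotropic glutamate and GABA-B receptors, which signal through G proteins, fell in 6 of 7 cases and rose in 0 by limma (0 were higher at an unadjusted p under 0.05). Grm7 read 9.0, 9.09 and 8.72 in neurons and 3.35, 3.25 and 3.37, near background, in yNSCs (difference -5.61, SE 0.125, by 1 of its 3 probe sets). Grm5 fell by 2.26 to levels of 7.57 to 8.01 that were still above background, and Grm2 fell by 2.04. Grm3, which is also expressed by astrocytes, was the member that did not pass, at 8.14, 7.88 and 7.89 in neurons and 8.0, 7.88 and 7.74 in yNSCs (adjusted p = 0.498), and its groups overlapped.

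Eph receptors and ephrins guide axons and set boundaries between cells. Of 21 members 11 fell (52.4%, against 11.0% of all genes), or 7 without the lowest 40% of genes by mean. Only 2 rose (9.52%, against 18.3%), or 1 without neuron replicate C or yNSC replicate C. Efnb3 read 10.13, 10.15 and 10.17 in neurons and 5.05, 5.36 and 5.64 in yNSCs (difference -4.80, SE 0.135), and Epha5 fell by 4.39, Epha3 by 3.28, to near background, and Epha7 by 2.85. Efna4 rose by 1.54, and Efnb1 was alike in both groups within its error (0.12, SE 0.113, adjusted p = 0.377).

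Neurotrophin and GDNF family receptors fell in 4 of 13 cases (30.8%, against 11.0% of all genes), or 7 after another quantile normalization. They rose in 1 (7.69%, against 18.3%). The member that rose was Gfra1, the GDNF co-receptor, at 7.25, 6.96 and 7.06 in neurons and 8.72, 8.75 and 8.71 in yNSCs (difference 1.64, SE 0.122, adjusted p = 1.52e-07). Ret, the kinase that Gfra1 works with, did not pass (0.07, adjusted p = 0.624) and was looked up after the rise of Gfra1 was seen. Ntrk3, the receptor of neurotrophin-3, fell by 1.17 and the sortilin-family gene Sorcs3 by 2.24, while Ntrk2, the receptor of BDNF, was higher by 0.94, just below 2-fold (adjusted p = 2.34e-05), with 1 of its 8 probe sets called higher and 3 lower.

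Among 41 other receptor tyrosine kinases, 7 rose (17.1%, near the 18.3% of all genes), or 3 after another quantile normalization, and 7 fell (17.1%, against 11.0%). Pdgfra, the platelet-derived growth factor receptor of oligodendrocyte precursors and mesenchymal cells, read 9.81, 9.50 and 9.52 in neuron cultures and 3.91, 4.10 and 4.10 in yNSCs (difference -5.57, SE 0.139, adjusted p = 1.22e-11). Kit, the stem cell factor receptor, read 8.31, 7.92 and 8.09 in neurons and 4.02, 3.53 and 4.59 in yNSCs (difference -4.06). Csf1r, the receptor on which microglia depend, fell by 3.10 from 8.99, 9.13 and 8.21, beside falls of most microglial markers that are given with the other cell types. Axl, a receptor for Gas6, read 5.97, 6.64 and 6.52 in neurons and 8.64, 8.57 and 8.88 in yNSCs (difference 2.32, SE 0.192), and the collagen receptor gene Ddr1 rose by 1.64. These gains and losses ran without overlap of the groups, as the rule for naming the genes required. Egfr, the receptor of the EGF in the yNSC medium, did not pass, with 8.03, 8.14 and 7.87 in neurons and 8.50, 8.39 and 8.08 in yNSCs (difference 0.31, adjusted p = 0.0672), though 1 of its 7 probe sets was called higher.

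Cytokine and TNF receptors showed the opposite balance at 2-fold, with 13 of 53 rising (24.5%, against 18.3% of all genes) and 1 falling (1.89%, against 11.0%). The latter count was 0 without neuron replicate C or yNSC replicate B. Below 2-fold, a further 7 members were higher and 11 lower with an adjusted p under 0.05 by limma. The list's median difference was 0.0. Il1rap, the shared subunit of interleukin-1 family receptors, read 4.24, 4.49 and 4.42 in neurons and 9.09, 8.91 and 8.68 in yNSCs (difference 4.51, SE 0.144, adjusted p = 9.32e-11), with 3 of its 5 probe sets higher and 1 lower. Tnfrsf12a, the receptor of the cytokine TWEAK, read 5.40, 5.88 and 5.88 in neurons and 9.74, 9.93 and 10.38 in yNSCs (difference 4.30). Neither gene had a yNSC array within the range of the neurons, as the rule for naming the genes required. The ectodysplasin receptor gene Eda2r rose by 4.18 and Il13ra1, from near background, by 3.46. Osmr, the oncostatin M receptor, was picked out after its values were seen, and its ligand oncostatin M is not described here. It read 6.79, 6.89 and 6.89 in neurons and 9.16, 9.07 and 9.01 in yNSCs (difference 2.22, SE 0.130, adjusted p = 1.75e-08).

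Lipid, nucleotide, protease and vasoactive peptide receptors had 7 rises and 3 falls among 52 members, or 5 falls with array medians subtracted and 1 without the lowest 40% of genes by mean. The shares, 13.5% and 5.77%, were below the 18.3% and 11.0% of all genes. F2r, the thrombin receptor PAR1, read 8.60, 8.51 and 8.94 in neurons and 11.39, 11.40 and 11.35 in yNSCs (difference 2.70, SE 0.119, adjusted p = 1.43e-09). P2ry1, an ADP receptor, rose by 2.78, the lysophosphatidic acid receptor gene Lpar6 by 2.60 and the ATP-gated channel gene P2rx7 by 1.97. On the side of losses were Npr3, the clearance receptor of natriuretic peptides, which read 6.65, 6.61 and 6.59 in neurons and 3.0, 2.54 and 3.08, near background, in yNSCs (difference -3.74), Ramp3 (-3.0), which pairs with the calcitonin receptor-like receptor, and the prostaglandin E receptor gene Ptger3 (-2.56). Ednrb, the endothelin B receptor, did not pass (-0.16, adjusted p = 0.396).

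Adhesion G protein-coupled receptors split, with 4 of 22 rising (18.2%, near the 18.3% of all genes) and 8 falling (36.4%, against 11.0%). Adgrg6, a receptor known for its role in Schwann cells, went from 3.35, 3.26 and 4.0, near background, to 8.67, 8.59 and 8.35 (difference 5.0, SE 0.174, adjusted p = 1.90e-10). The synaptic receptor genes Adgrb3 (-2.38) and Adgrl1 (-2.03) fell, as did Celsr3 (-3.20), which steers axons. Tetraspanins and L6 proteins, which organise other membrane proteins, had 8 rises and 4 falls among 27 members, or 7 falls with array medians subtracted. Their shares were 29.6% and 14.8%, against 18.3% and 11.0% of all genes. Cd151, a partner of laminin-binding integrins, read 8.19, 8.09 and 7.95 in neurons and 11.96, 11.92 and 11.79 in yNSCs (difference 3.81, SE 0.131), and Tspan12 rose by 2.77 and Tspan15 by 2.49. Tspan13 fell by 3.69, while Cd81 (0.73) and Tspan3 (0.06, adjusted p = 0.746) stayed below 2-fold.

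**Figure D2:**
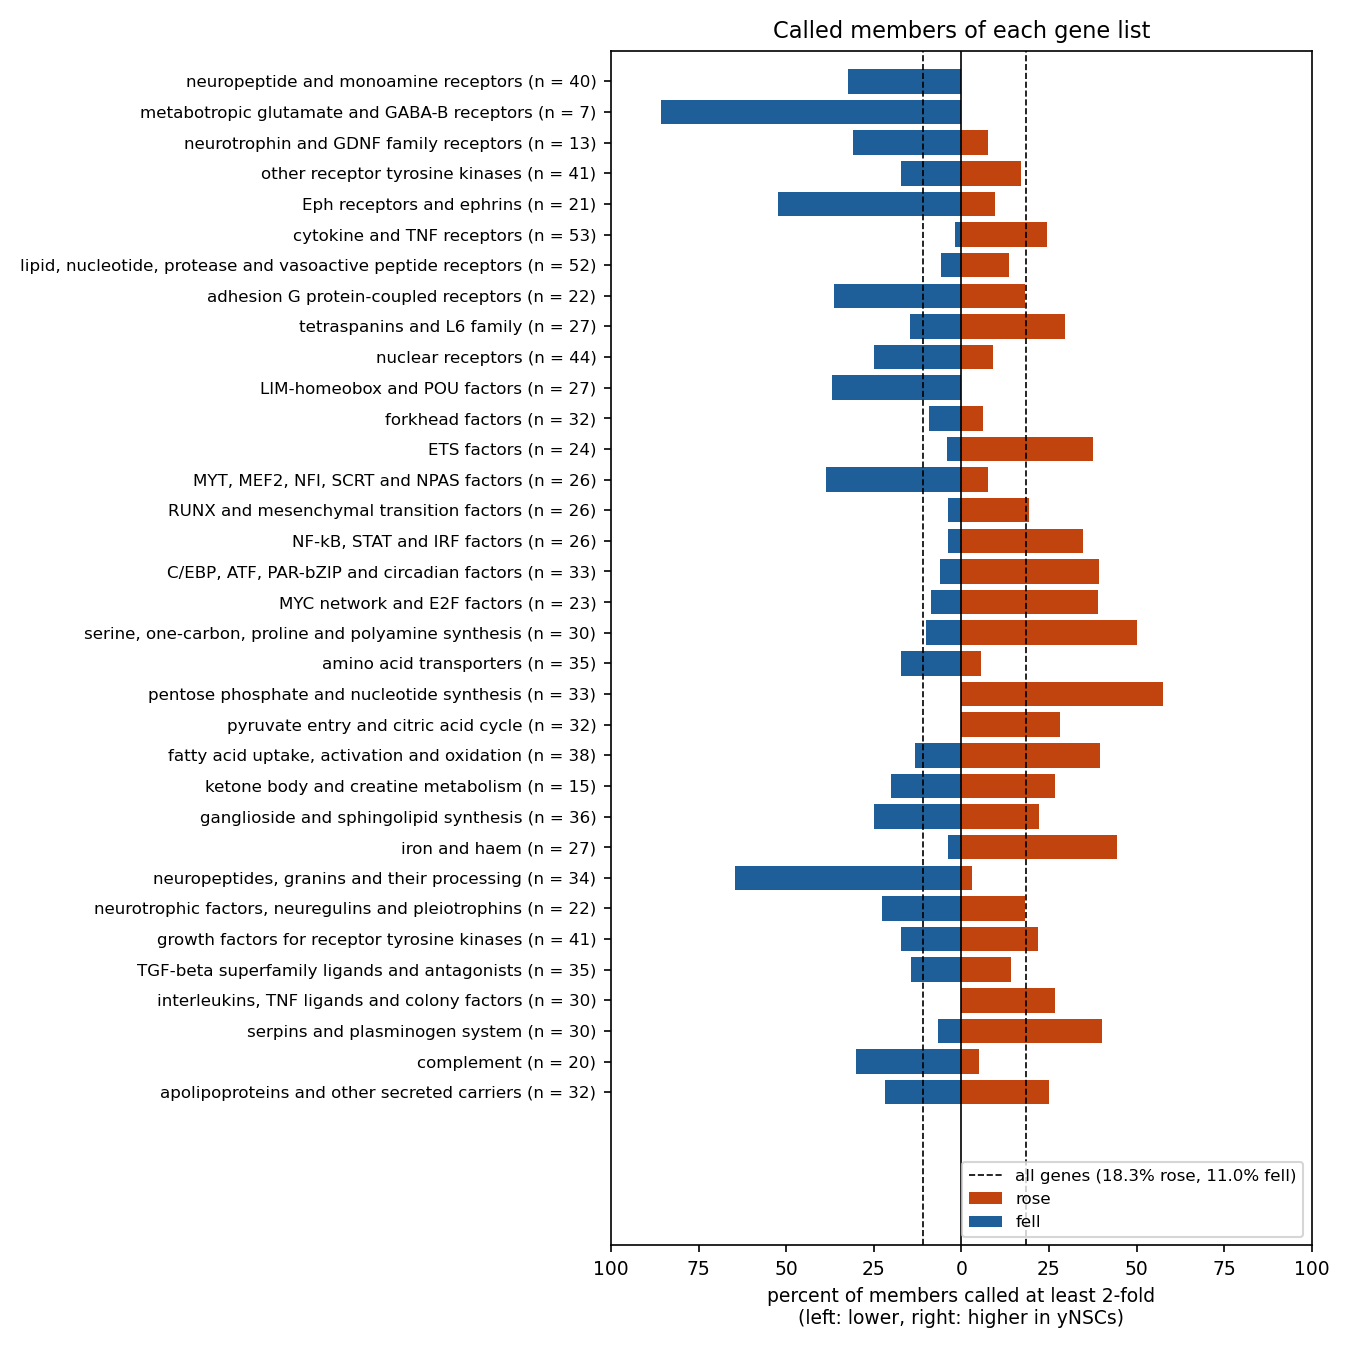
Percent of the measured members of each list that rose (orange, to the right) or fell (blue, to the left) by at least 2-fold in yNSCs against neurons, with the share of all genes, 18.3% and 11.0%, as dashed lines. Losses fill the lists of metabotropic receptors, Eph receptors and ephrins, and neuropeptides, and gains fill those of nucleotide synthesis, one-carbon synthesis and iron and haem.

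Of 261 transcription factor genes on 9 lists 53 rose (20.3%, near the 18.3% of all genes) and 41 fell (15.7%, against 11.0%). Nuclear receptors, LIM-homeobox and POU factors, and the MYT and MEF2 group held most of the losses.

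Losses prevailed among the MYT, MEF2, NFI, SCRT and NPAS factors, of which 10 of 26 fell and 2 rose, the latter 1 without neuron replicate A or C. Mef2c, an activity-dependent factor of cortical neurons, fell steeply (difference -5.03, SE 0.119, adjusted p = 8.54e-12). Camta1, a calmodulin-binding factor, read 10.11, 10.13 and 10.08 in neurons and 4.72, 4.76 and 4.54 in yNSCs (difference -5.43), and Myt1l, which represses non-neuronal genes in neurons, fell by 4.06. All 3 were far lower in every yNSC array, and lack of overlap was a condition of naming them. The NFI factors Nfib (0.40) and Nfix (-0.81), which neurons and progenitors share, stayed below 2-fold.

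Of 27 LIM-homeobox and POU factors and their partners 10 fell and 0 rose by limma (2 were higher at an unadjusted p under 0.05, and with the mean of all probe sets 1 rose). The cofactor gene Ldb2 read 9.86, 9.66 and 9.76 in neurons and 5.31, 5.35 and 5.71 in yNSCs (difference -4.30, SE 0.132), and Lmo3 fell by 4.28. Lhx6, a factor of cortical interneurons, fell (-3.21), as did Pou3f1 (-2.75), whereas Pou3f3 (0.62) and Lmo4 (-0.91) differed by less than 2-fold. Of 44 nuclear receptors 11 fell, or 6 without the lowest 40% of genes by mean and 7 with the mean of all probe sets, and 4 rose, or 2 without neuron replicate A. Nr4a3, an activity-induced orphan receptor, read 9.58, 9.53 and 9.51 in neurons and 5.16, 5.51 and 6.25 in yNSCs (difference -3.90, SE 0.217, by 1 of its 3 probe sets), with yNSC replicate C nearest to the neurons. The thyroid hormone receptor gene Thra (-2.62), the progesterone receptor gene Pgr (-2.96, to near background) and the retinoic acid receptor gene Rarb (-2.22) fell as well.

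Of 32 forkhead factors 2 rose (6.25%, against 18.3% of all genes) and 3 fell (9.38%, close to the 11.0% of all genes). Foxp1, a factor of cortical projection neurons, read 9.89, 9.64 and 9.56 in neurons and 5.96, 5.59 and 5.41 in yNSCs (difference -4.04, SE 0.142), and Foxp2 fell by 2.62. Foxc1, known from mesenchyme and the meninges, read 3.93, 3.68 and 3.52 in neurons and 7.27, 7.29 and 7.30 in yNSCs (difference 3.58, SE 0.126, adjusted p = 2.04e-10). Among 26 RUNX and mesenchymal transition factors 5 rose (19.2%, near the 18.3% of all genes), or 3 with the mean of all probe sets, and 1 fell (3.85%, against 11.0%). Prrx1, a homeobox gene of mesenchyme that is also known from neural precursors, read 4.54, 4.58 and 4.95 in neurons and 10.12, 9.99 and 9.79 in yNSCs (difference 5.28, SE 0.133, adjusted p = 1.34e-11), with 5 of its 6 probe sets called higher. The RUNX partner gene Cbfb rose by 1.95, and the corepressor gene Runx1t1 read 7.49, 7.76 and 7.69 in neurons and 3.45, 3.56 and 3.49 in yNSCs (difference -4.15).

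ETS factors, many of which are targets of ERK signalling, had 9 rises and 1 fall among 24 members, and with the mean of all probe sets 4 rose. Their shares were 37.5% and 4.17%, against 18.3% and 11.0% of all genes. Ets1 read 4.49, 4.12 and 4.28 in neurons and 6.82, 6.94 and 6.90 in yNSCs (difference 2.59, SE 0.113, adjusted p = 1.33e-09). Elk3 rose by 2.56 and Etv5, a target of FGF signalling, by 1.66 from 8.86, 8.75 and 8.72. Ets2 (-0.39) and Etv6 (0.18, adjusted p = 0.324) stayed below 2-fold, the latter with 1 of its 2 probe sets called higher.

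The factors of NF-kB, STAT and IRF signalling and their inhibitors rose in 9 of 26 cases, or 5 without the 40% of genes with the lowest mean, and fell in 1. Socs3, a feedback inhibitor of cytokine receptors that signal through STAT3, read 4.94, 4.93 and 4.20 in neurons and 8.49, 8.61 and 8.74 in yNSCs (difference 3.92, SE 0.204, adjusted p = 5.97e-09). Nfkbiz, a nuclear cofactor of NF-kB, read 5.72, 5.39 and 4.80 in neurons and 9.20, 9.26 and 9.12 in yNSCs (difference 3.89). Relb rose by 1.83 and Socs1 by 1.74, the latter with yNSC replicate C at 6.44 above the others at 5.45 and 5.63. Socs2, which restrains growth hormone signalling, went the other way, from 9.28, 9.22 and 9.11 to 3.79, 3.94 and 4.14 (difference -5.25, SE 0.115). Stat3 itself was higher by 0.92, below 2-fold (adjusted p = 4.43e-05), with another of its probe sets lower.

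The C/EBP, ATF, PAR-bZIP and circadian factors had 13 rises (39.4%, against 18.3% of all genes) among 33 members. They had 2 falls (6.06%, against 11.0%), or 5 after another quantile normalization. Cebpd read 6.80, 6.81 and 6.34 in neurons and 9.15, 9.20 and 9.24 in yNSCs (difference 2.55, SE 0.157), Creb3l2, a membrane-bound stress factor, rose by 2.29 and Cebpb by 1.93. The PAR-bZIP gene Hlf fell by 2.45 and the clock repressor gene Cry2 by 1.22. Atf4, the factor of the amino acid response, did not reach 2-fold (-0.56, adjusted p = 0.0335), nor did Xbp1 (0.26, adjusted p = 0.122).

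The MYC genes moved in opposite directions. Mycn, the MYC gene of neural precursors, read 9.51, 9.15 and 9.30 in the neuron cultures and 4.90, 4.56 and 4.42 in yNSCs (difference -4.69, SE 0.215, adjusted p = 2.0e-09), and Mycl fell by 2.98. Myc read 7.13, 7.20 and 7.37 in neurons and 8.83, 8.83 and 8.88 in yNSCs (difference 1.61, SE 0.100, adjusted p = 2.98e-08). No array of either group overlapped the other in these 3 genes, which was a condition of naming them. Of the 23 genes of the MYC network and the E2F factors 9 rose, among them E2f7 (2.37, near background in neurons) and E2f8 (2.19), and 2 fell, which are the MYC genes above.

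Metabolism held the largest share of gains. Of 245 genes on 8 lists 83 rose (33.9%, against 18.3% of all genes) and 27 fell (11.0%, the share of all genes). Nucleotide, one-carbon, fatty acid and haem enzymes accounted for most of the gains.

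Pentose phosphate and nucleotide synthesis supply the building blocks of DNA and RNA. Of 33 genes 19 rose and 0 fell by limma (3 were lower at an unadjusted p under 0.05), with a median difference of 1.19 against -0.007 over all genes. Pgd, an oxidative pentose phosphate enzyme, read 9.23, 9.0 and 8.85 in neurons and 11.63, 11.54 and 11.31 in yNSCs (difference 2.47, SE 0.138, adjusted p = 1.12e-08). Cad, which carries out the opening steps of pyrimidine synthesis, read 5.40, 4.90 and 5.37 in neurons and 7.96, 8.0 and 7.82 in yNSCs (difference 2.70). The purine synthesis genes Atic (2.29), Adsl (2.07), Pfas (2.03), Gart (1.85) and Paics (1.46), chosen after their values were seen, rose. The groups did not overlap for Pgd or Cad, which was a condition of naming them. Gmps rose by 2.88 by its brightest probe set, 1 of 3. Tkt, the transketolase gene, was higher by 0.94, below 2-fold, and Nme1 did not pass (0.17, adjusted p = 0.220).

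Serine, one-carbon, proline and polyamine synthesis had 15 rises and 3 falls among 30 members. Mthfd1l, a mitochondrial folate enzyme, read 6.03, 5.87 and 6.37 in neurons and 9.05, 8.90 and 8.87 in yNSCs (difference 2.85, SE 0.135). Mthfd2l rose by 2.25, Cth, which makes cysteine, by 2.69, and Odc1, the entry enzyme of polyamine synthesis, by 2.18 from 9.21, 9.75 and 9.29. Phgdh (0.46) and Psat1 (0.74), which make serine from glycolysis, were higher by less than 2-fold. Shmt1, the cytosolic serine hydroxymethyltransferase, fell by 2.24 by its brightest probe set while its other 3 probe sets rose, and the mean of its probe sets rose by 1.03. Amino acid transporters were the metabolic list with the fewest gains, with 2 of 35 rising (5.71%, against 18.3% of all genes). Losses numbered 6 (17.1%, against 11.0%), or 10 with array medians subtracted. Slc1a1, a neuronal glutamate and cysteine carrier, read 8.68, 8.73 and 8.57 in neurons and 3.75, 3.96 and 3.33 in yNSCs (difference -4.98, SE 0.144), and Slc7a14 fell by 4.09, to near background. Slc7a11, the cystine carrier, rose by 1.58.

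Pyruvate entry and citric acid cycle genes rose in 9 of 32 cases, or 5 with the mean of all probe sets, and fell in 0 by limma, or 1 without yNSC replicate B or C (4 were lower at an unadjusted p under 0.05). The malic enzyme genes Me2 (2.45) and Me1 (1.78) and the succinyl-CoA ligase gene Suclg2 (2.24) rose. Me2 read 6.0, 5.83 and 5.81 in neurons and 8.37, 8.33 and 8.28 in yNSCs. Mdh2, the malate dehydrogenase of the cycle, did not pass, at 12.67, 12.68 and 12.58 in neurons and 12.55, 12.57 and 12.48 in yNSCs (difference -0.11, adjusted p = 0.335).

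Of 38 genes of fatty acid uptake, activation and oxidation 15 rose (39.5%, against 18.3% of all genes) and 5 fell (13.2%, against 11.0%). Hadh, a dehydrogenase of mitochondrial beta-oxidation, read 8.80, 8.85 and 8.56 in neurons and 11.84, 11.72 and 11.73 in yNSCs (difference 3.03, SE 0.113, adjusted p = 3.48e-10). Cpt2, which brings fatty acids into the matrix, rose by 2.80, Acads by 2.04 and Eci2 by 1.92, while Acadm, another dehydrogenase of beta-oxidation, was higher by 0.96, just below 2-fold (adjusted p = 5.47e-05). Among the falls the fatty acid binding protein gene Fabp3 stood at 10.17, 10.13 and 10.13 in neurons and 5.11, 5.20 and 5.33 in yNSCs (difference -4.93, SE 0.0953), the scavenger receptor gene Cd36 at -2.50, the lipoprotein lipase gene Lpl at -2.29 and the activating enzyme gene Acsl3 at -1.25, or -0.87 with the mean of its probe sets. Fabp7, the fatty acid binding protein of radial glia, did not pass (-0.24, adjusted p = 0.0657) at 13.64, 13.51 and 13.51 in the neuron cultures and 13.30, 13.39 and 13.26 in yNSCs.

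Ketone body and creatine genes split, with 4 of 15 rising (26.7%, against 18.3% of all genes) and 3 falling (20.0%, against 11.0%). Slc16a1, the monocarboxylate carrier MCT1, read 8.27, 8.26 and 8.34 in neurons and 11.05, 11.00 and 10.85 in yNSCs (difference 2.68, SE 0.121). Gamt, which completes creatine synthesis, rose by 2.65, whereas Ckmt1, the mitochondrial creatine kinase, fell by 4.05 from 8.02, 7.81 and 8.23. Oxct1 (-1.76) and Bdh1 (-1.48), which use ketone bodies, fell, and Ckb, the brain creatine kinase, did not pass (0.20, adjusted p = 0.0917).

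Ganglioside and sphingolipid genes were divided, with 8 of 36 rising and 9 falling. The sialyltransferase genes St8sia3 (-3.12) and St8sia2 (-1.50) and B4galnt1 (-2.44), which build the complex gangliosides and polysialic acid of neurons, fell, and so did Smpd3 (-3.55), a neutral sphingomyelinase. Sgms2, a sphingomyelin synthase, rose from 2.74, 2.94 and 2.31, near background, to 7.13, 7.17 and 6.95 (difference 4.42, SE 0.146, adjusted p = 1.21e-10), and Sgpl1, which degrades sphingosine phosphate, read 6.77, 6.18 and 6.21 in neurons and 9.87, 9.89 and 9.94 in yNSCs (difference 3.51).

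Iron and haem genes had 12 rises and 1 fall among 27 members. Hmox1, the inducible haem oxygenase, read 5.35, 5.68 and 5.59 in neurons and 9.45, 9.79 and 10.17 in yNSCs (difference 4.26, SE 0.169, adjusted p = 5.60e-10). Blvrb, a biliverdin reductase, rose by 3.44, Steap1, of a family of metalloreductases, by 3.71 and the copper ferroxidase gene Cp by 3.15, with 7 of its 8 probe sets called higher. The 1 fall was of Slc40a1, the iron exporter ferroportin (-1.56), and Fth1, the ferritin heavy chain, did not pass (0.27, adjusted p = 0.0554).

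**Figure D3:**
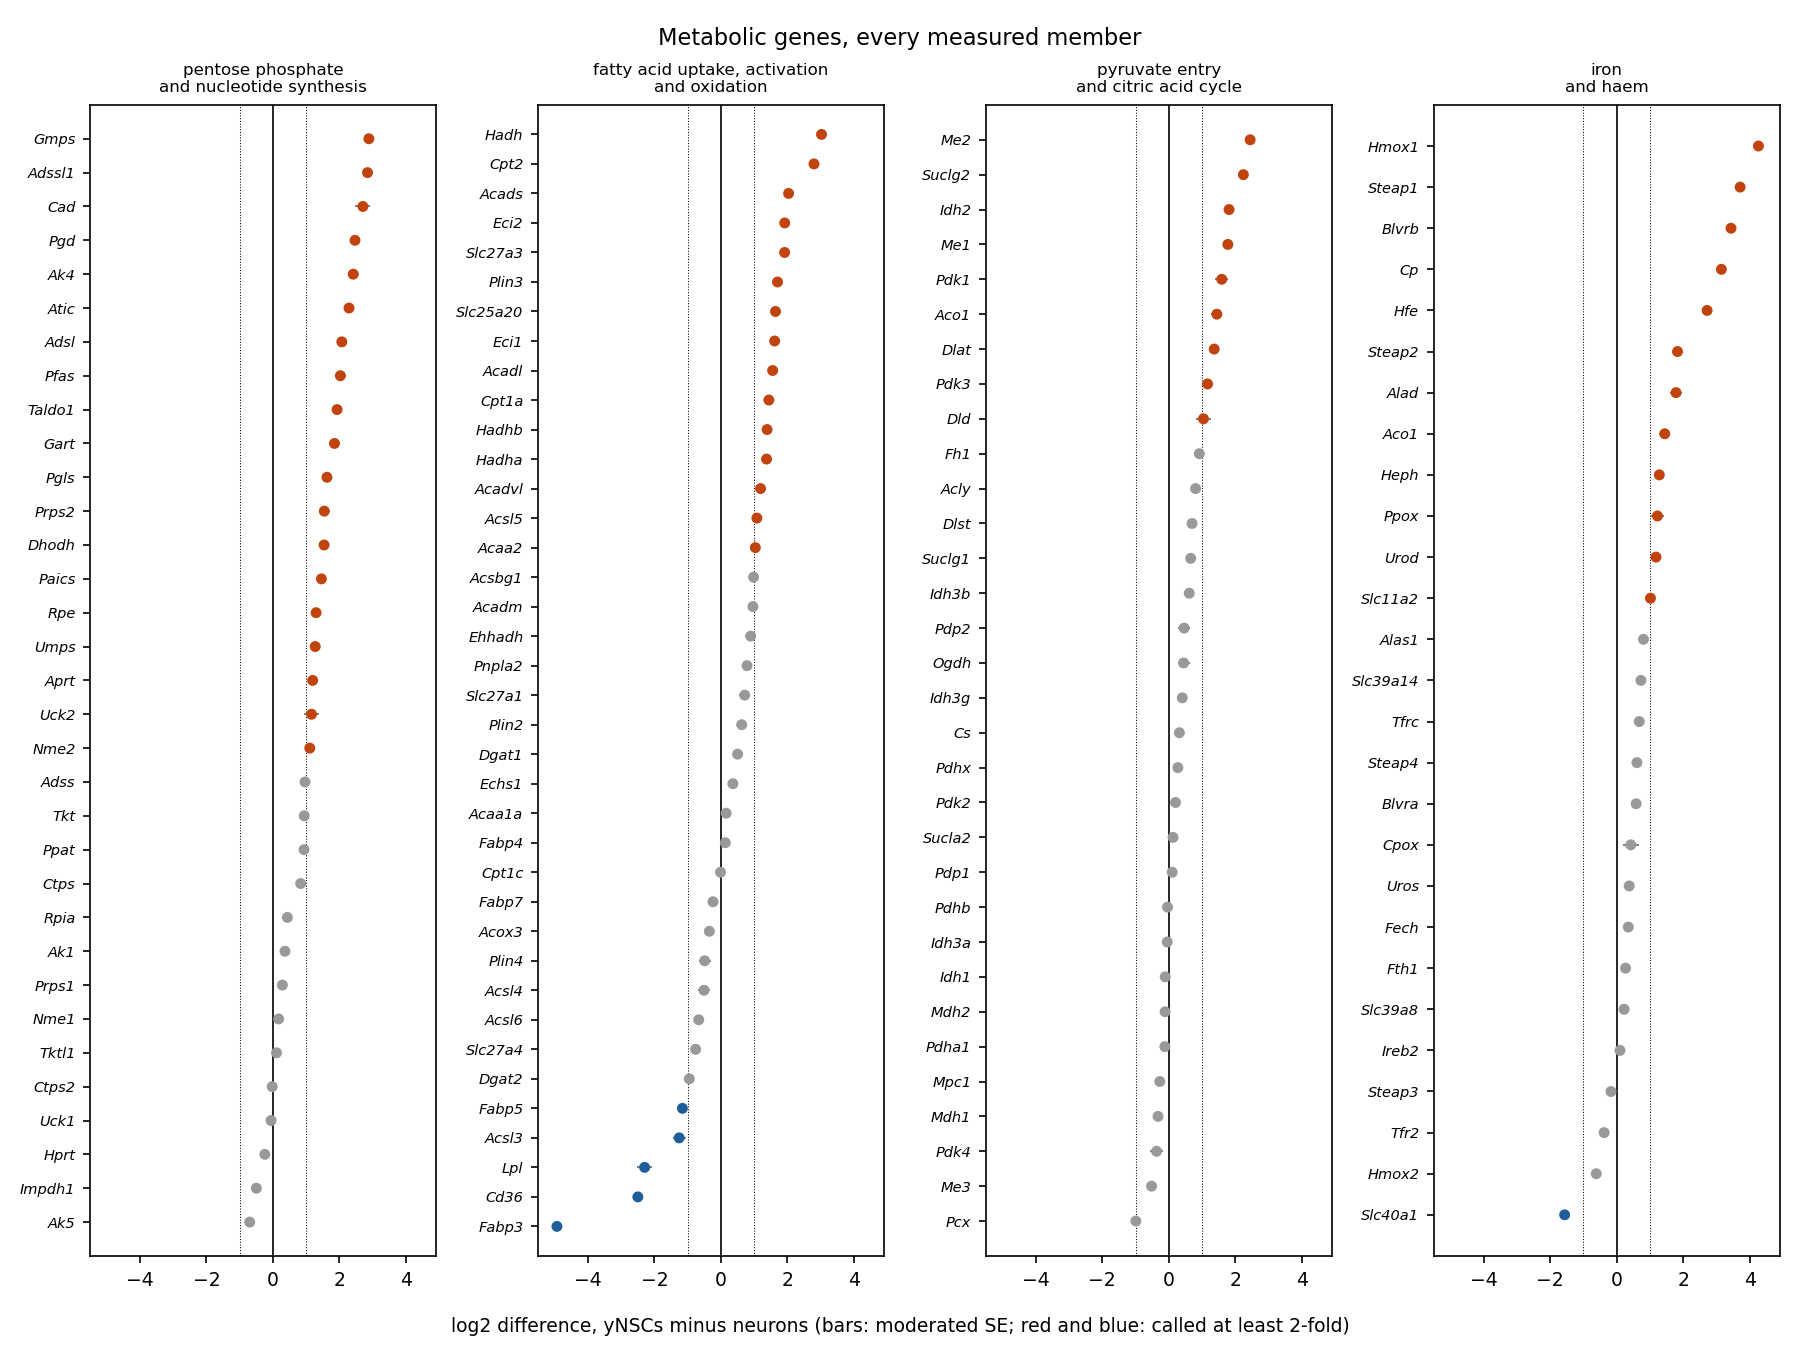
Difference in log2 expression, yNSCs minus neurons, for every measured gene of 4 metabolic lists, with bars for the moderated standard error, dotted lines at a 2-fold change and colours for genes that rose (orange) or fell (blue). In the list of nucleotide synthesis 19 of 33 genes rose and 0 fell, and in the list of fatty acid genes Hadh (3.03) and Fabp3 (-4.93) are the extremes.

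Secreted factors changed in both directions. Of 243 genes on 8 lists 48 rose (19.8%, near the 18.3% of all genes) and 54 fell (22.2%, against 11.0% of all genes). Neuropeptide genes held the most losses, and genes of the serpin and plasminogen system the most gains.

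Of 34 genes of neuropeptides, granins and their processing 22 fell, or 14 without the 40% of genes with the lowest mean, and 1 rose, with a median difference of -1.85. Cck, the cholecystokinin gene, read 10.97, 11.47 and 11.33 in neurons and 4.39, 4.31 and 4.46 in yNSCs (difference -6.87, SE 0.138, adjusted p = 2.80e-12). Chgb, a protein of dense-core granules, read 11.03, 10.83 and 10.91 in neurons and 4.95, 4.80 and 5.05 in yNSCs (difference -5.99). Every yNSC array was below every neuron array for both, as the rule for naming the genes required. Cpe, an enzyme that matures peptides and is also made by glia, was lower by 0.49 only (adjusted p = 6.0e-04), and Scg3 by 0.71. Gal, the galanin gene, was the member that rose, from 3.51, 3.77 and 3.86 to 5.94, 6.35 and 6.69 (difference 2.61, SE 0.178, adjusted p = 6.62e-08).

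Neurotrophic factors, neuregulins and pleiotrophins had 4 rises and 5 falls among 22 members, or 2 falls without the lowest 40% of genes by mean. The shares were 18.2% and 22.7%, against 18.3% and 11.0% of all genes. The secreted synaptic proteins Lgi1 (-5.49, to near background), Lgi2 (-3.92) and Cbln1 (-4.60) fell. The neuronal pentraxin gene Nptx1 went against them, at 6.26, 6.22 and 6.62 in neurons and 10.51, 10.45 and 10.45 in yNSCs (difference 4.10, SE 0.127, adjusted p = 6.86e-11). Artn, the GDNF family ligand artemin, rose by 2.21 from near background, and Manf, a factor of the stressed endoplasmic reticulum, by 1.87. Ptn, the pleiotrophin gene, did not pass (-0.22, adjusted p = 0.111), at 12.23, 12.19 and 12.10 in neurons and 11.93, 12.07 and 11.85 in yNSCs.

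Growth factors for receptor tyrosine kinases had 9 rises (22.0%, against 18.3% of all genes) and 7 falls (17.1%, against 11.0%) among 41 members. Hbegf, a membrane-tethered ligand of the EGF receptor, read 6.41, 6.61 and 6.84 in neurons and 11.18, 11.24 and 11.59 in yNSCs (difference 4.72, SE 0.183, adjusted p = 4.77e-10). The related ligands Btc, betacellulin, and Ereg, epiregulin, were near background in neurons, at 3.47, 3.99 and 3.50 and at 2.79, 2.85 and 3.0. In yNSCs Btc read 7.45, 7.30 and 7.45 (difference 3.75) and Ereg 6.16, 6.22 and 5.77 (difference 3.17). These 3 ligands, named as among the largest rises of their list, were higher in each yNSC array than in any neuron array, as the naming rule required. The chosen probe set of Egfr did not pass, and other ligands of the EGF receptor are not described here. Vegfa, the vascular growth factor, rose by 3.60. Among the fibroblast growth factor homologous genes, whose proteins stay in the cell and bind sodium channels, Fgf13 fell, at 11.20, 11.03 and 10.87 in neurons and 5.10, 4.27 and 4.38 in yNSCs (difference -6.45, SE 0.194), as did Fgf12 (-5.89) and Fgf14 (-2.26, to near background). The remaining member, Fgf11, looked up after the values of the others were seen, rose by 1.01, just past 2-fold. Igf1 fell by 3.33 from 8.38, 8.38 and 8.42, beside the microglial markers given with the other cell types.

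For 2 receptors of the list above, ligand and receptor moved apart. Kitl, the stem cell factor, read 8.87, 8.97 and 8.79 in neurons and 11.09, 11.04 and 10.94 in yNSCs (difference 2.15, SE 0.106, adjusted p = 3.99e-09), while Kit fell by 4.06. Csf1, a macrophage growth factor, read 7.35, 7.45 and 7.01 in neurons and 8.76, 9.09 and 9.34 in yNSCs (difference 1.79, SE 0.160), while Csf1r fell by 3.10. These ligands were chosen after their values were seen, for their match to the receptors.

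Among 30 interleukins, TNF ligands and colony factors 8 rose and 0 fell by limma (4 were lower at an unadjusted p under 0.05), and 3 rose when the 40% of genes with the lowest mean were left out. Clcf1, a cytokine of the interleukin-6 family, read 5.03, 5.15 and 4.80 in neurons and 8.45, 8.64 and 8.88 in yNSCs (difference 3.66, SE 0.142, adjusted p = 4.72e-10). Lif, of the same family, read 4.30, 3.93 and 3.66 in neurons and 6.21, 6.61 and 7.21 in yNSCs (difference 2.71, SE 0.222), the widest spread among the yNSC arrays of these cytokines. Il33, an alarmin that acts through Il1rap, rose from near background at 3.68, 3.58 and 3.59 to 7.25, 7.40 and 7.54 (difference 3.78), and the TNF ligand gene Tnfsf9 rose by 2.70. Il6st, the signalling subunit that the interleukin-6 family shares, did not pass (0.17, adjusted p = 0.225) and Lifr, the receptor of Lif, was lower by 0.46, below 2-fold (adjusted p = 0.0368), and both were looked up after the ligands.

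**Figure D4:**
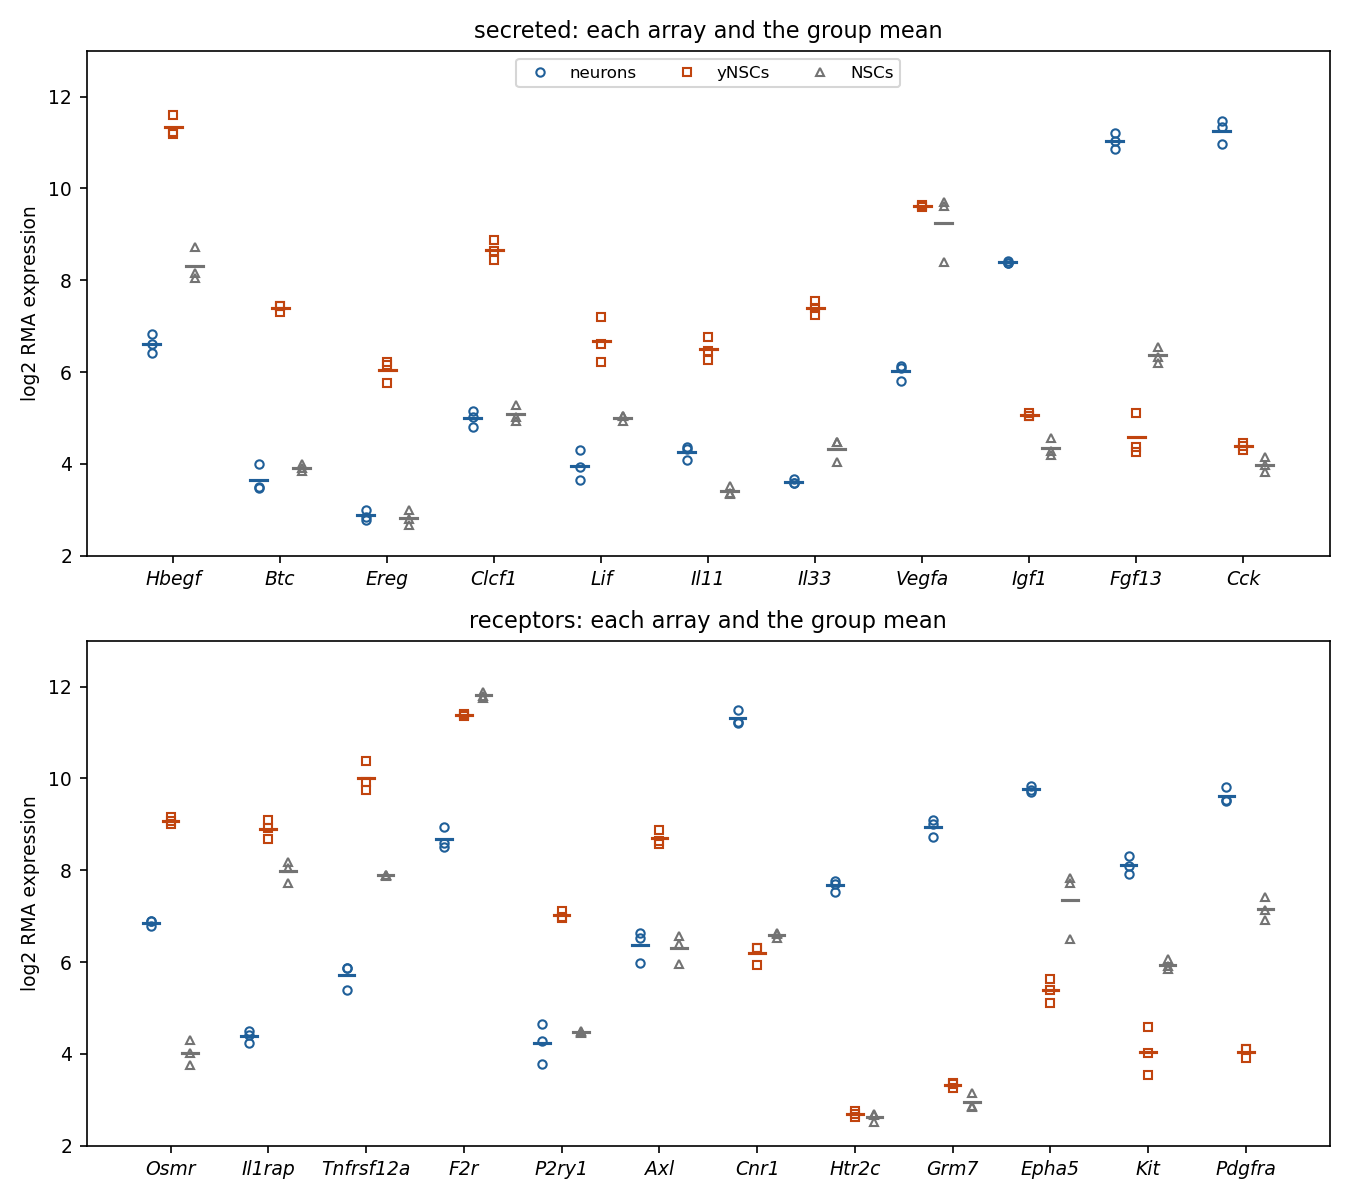
Log2 expression in each neuron (circles), yNSC (squares) and NSC array (triangles) for secreted factors (top) and receptors (bottom), with bars at the group means. Hbegf, Btc, Ereg, Clcf1 and Il33 are higher in yNSCs than in either other group, and Pdgfra and Kit are lower in yNSCs than in either.

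TGF-beta superfamily ligands and antagonists had 5 rises and 5 falls among 35 members, or 2 falls without the lowest 40% of genes by mean. Each share was 14.3%, against 18.3% and 11.0% of all genes. Ltbp1, which binds latent TGF-beta in the matrix, read 3.08, 3.53 and 3.23, near background, in neurons and 8.94, 8.73 and 8.69 in yNSCs (difference 5.51, SE 0.132, adjusted p = 9.24e-12), and Ltbp3 rose by 2.23. The BMP antagonist gene Chrdl1 rose by 2.86 and Bmp6 by 1.85. Dcn, the matrix proteoglycan decorin, fell by 3.11 from 8.22, 8.14 and 8.17, and Inha by 1.56.

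The serpins and the plasminogen system rose in 12 of 30 cases, or 7 without the 40% of genes with the lowest mean, and fell in 2, the latter 1 without neuron replicate B or yNSC replicate B. Anxa2, an annexin that holds plasminogen and its activator on the cell surface, read 8.22, 8.46 and 8.25 in neurons and 12.37, 12.34 and 12.47 in yNSCs (difference 4.08, SE 0.160, adjusted p = 5.13e-10, by 1 of its 3 probe sets). Plat, the tissue plasminogen activator, rose by 3.06, by 1 of its 2 probe sets, and F3, tissue factor, by 2.57. Serpini1, the neuronal inhibitor of tissue plasminogen activator known as neuroserpin, fell from 9.07, 9.09 and 9.12 to 4.65, 4.81 and 4.80 (difference -4.34, SE 0.110). The protease and its neuronal inhibitor moved in opposite directions, and lack of overlap of the groups was a condition of naming them.

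Complement genes had 6 falls (30.0%, against 11.0% of all genes) and 1 rise (5.0%, against 18.3%) among 20 members. The C1q genes C1qa (-5.48), C1qb (-5.86) and C1qc (-5.18), which microglia make in the brain, were the largest of these falls, while Clu, clusterin, did not pass, at 11.62, 11.92 and 11.60 in neurons and 11.46, 11.38 and 11.68 in yNSCs (adjusted p = 0.200). Apolipoproteins and other secreted carriers had 8 rises and 7 falls among 32 members. Crabp2, a retinoic acid binding protein on this list, rose by 4.35 from near background, with 7.63, 8.05 and 8.47 in yNSCs, and Igfbp2 by 2.81. The matrix proteoglycan genes Spock1 (-4.83, to near background) and Spock2 (-4.37) fell. Apoe, the main lipid carrier of glia, did not pass at 13.24, 13.09 and 13.14 in neurons and 12.91, 12.92 and 13.07 in yNSCs (difference -0.19, adjusted p = 0.290).

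Markers of other brain cells also differed, and in bulk RNA fewer cells of a type and less RNA per cell cannot be told apart. Of 15 microglia and macrophage markers 12 fell and 0 rose by limma (0 were higher at an unadjusted p under 0.05), and their summed level, in log2, was 12.69 to 13.17 in neuron arrays and 9.55 to 9.77 in yNSC arrays. Such a sum over the probe sets of different genes is weighted to the brightest members and does not measure the amount of a cell type. Tyrobp read 10.18, 10.32 and 9.89 in neurons and 5.18, 5.27 and 5.30 in yNSCs (difference -4.88, SE 0.158), and 1 of the 15 was near background in neurons and 2 were in yNSCs. Csf1r, Cd53, Adgre1, C3ar1, Igf1 and the C1q genes fell beside these markers, and the part of microglia in their falls was not tested. Cd68, a lysosomal protein of macrophages, was lower by 0.73, below 2-fold.

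Oligodendrocyte precursor markers had 3 rises and 4 falls among 10 members, with a summed level of 12.21 to 12.24 in neurons and 13.13 to 13.16 in yNSCs. Olig2 read 8.72, 8.88 and 8.83 in the neuron cultures and 10.75, 10.85 and 10.75 in yNSCs (difference 1.97, SE 0.108), Nkx2-2 rose by 2.71 and Olig1 by 1.19. The other called members fell, with Pdgfra as above, Lhfpl3 at -2.53, Sox10 at -1.61, or -0.94 with the mean of its probe sets, and Pcdh15 at -1.22. The list's median difference was -0.67, and Olig1, with a mean of 12.76 in yNSCs, carried most of the summed level. Astrocyte markers rose in 4 of 16 cases, or 2 after another quantile normalization, and fell in 3, with a summed level of 14.44 to 14.53 in neurons and 13.98 to 14.14 in yNSCs. Gfap read 8.10, 7.47 and 7.28 in neuron cultures and 9.15, 9.15 and 9.38 in yNSCs (difference 1.61, SE 0.182), and Aldh1l1, a folate enzyme of astrocytes, rose by 1.64. Glul, the glutamine synthetase (-1.97), the aldolase gene Aldoc (-1.67) and the glutamate transporter gene Slc1a2 (-1.57, or -0.74 with the mean of its probe sets) were those that fell. The glutamate transporter gene Slc1a3 did not pass (-0.23, adjusted p = 0.318), with 1 of its 6 probe sets called higher, and its groups overlapped.

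Mural cell and fibroblast markers had 2 rises (14.3%, against 18.3% of all genes) and 2 falls (14.3%, against 11.0%) among 14 members. Their summed level was 10.46 to 10.60 in neurons and 12.36 to 12.76 in yNSCs. Tagln and Acta2 carried most of the level in yNSCs, and the list's median difference was -0.29. The members that rose were Tagln, at 5.62, 6.0 and 5.54 in neurons and 11.71, 11.87 and 12.21 in yNSCs, and the smooth muscle actin gene Acta2 (4.83, by 1 of its 3 probe sets). Those that fell were Pdgfra and Dcn. Of 10 myelin markers 1 rose and 2 fell, with a summed level of 10.81 to 10.94 in yNSCs, above that of every neuron array, and Mbp fell by 2.55 and Cnp rose by 1.56. Cnp, with a mean of 10.72 in yNSCs, carried most of that level. The list's median difference was -0.27, and 4 members were near background in yNSCs. No endothelial marker of 11 rose or fell by limma (0 and 0, with 0 higher and 4 lower at an unadjusted p under 0.05), at a summed level of 7.72 to 7.89 and 7.58 to 7.75. Of 12 ependymal and choroid plexus markers 0 rose by limma (2 were higher at an unadjusted p under 0.05), or 1 without yNSC replicate B. The 1 that fell was Ttr (-1.78), and the summed level was 8.60 to 8.94 in neurons and 8.55 to 8.64 in yNSCs.

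Values in the native NSCs, which share the medium, stood beside several of these changes. Of all genes 6.06% were at least 2-fold higher and 5.97% lower in yNSCs than in NSCs with an adjusted p under 0.05, and this comparison shares the yNSC arrays with the one above. The larger 3′ to 5′ differences of the NSC arrays were not corrected for, and their part in these values was not tested. Mean levels in NSCs were 8.31 for Hbegf, 3.92 for Btc and 2.82 for Ereg, so that yNSCs were higher by 3.03, 3.48 and 3.23 (adjusted p = 9.76e-08, 3.36e-09 and 5.56e-09). Clcf1 was higher by 3.58, Osmr by 5.06, Steap1 by 3.63, Hmox1 by 3.24 and Gsta2 by 6.69. These genes were thus higher in yNSCs than in neurons and also than in NSCs. The test of yNSCs against NSCs was not passed by Vegfa (0.38, adjusted p = 0.315), Nptx1 (0.13, adjusted p = 0.479), Hadh (0.17, adjusted p = 0.264), Adm (0.21, adjusted p = 0.296) or Lpar6 (-0.03, adjusted p = 0.874). These genes, named for the contrast after their values were seen, thus rose over neurons without a called difference from NSCs. For Vegfa the NSC arrays were spread, with replicate A at 8.39 and the others at 9.71 and 9.62. Egfr was lower in yNSCs than in NSCs by 2.99, from a mean of 11.31, and Pdgfra by 3.12, Socs2 by 2.86, Pou3f1 by 3.24 and Lmo3 by 3.13. Apoe and Clu, which did not pass between yNSCs and neurons, were higher in yNSCs than in NSCs by 4.37 and 4.05.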

How the data were processed

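Total RNA of 3 groups with 3 arrays each (neurons, yNSCs and native NSCs) was labelled as cRNA and hybridised to Affymetrix mouse arrays. The authors deposited log2 expression values made with RMA, which corrects background, normalises quantiles and summarises probes into probe sets. Whether all 9 arrays were processed together is not given in the sources used here. Of 45101 probe sets 64 controls were left out, 34945 had 1 gene symbol, 932 had several and 9160 had none, which left 18193 genes, each represented by its probe set of highest mean over all arrays. RefSeq gene IDs (GRCm38.p6) matched 34741 of the probe sets with 1 symbol. Group means were fitted over all 9 arrays with limma 3.58.1 (lmFit and eBayes, R 4.3.3), and p-values were adjusted over all genes by the Benjamini-Hochberg method. The script was tested on simulated data. The number of arrays limits the precision.

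The 41 gene lists and the comparison were chosen with earlier results of these data known. Genes were named by a rule: the 12 largest rises and falls over all genes and the 4 largest of each list, called, without overlap of the groups and above background in the higher group, the 2 genes of highest mean not called in each list, and Tubb3, Rbfox3, Nes, Timp1 and Tm4sf1 as markers. Other genes are said to be chosen after their values were seen. Replicate letters did not pair the arrays. Alternatives were another quantile normalization, subtraction of array medians, a filter on low genes, the mean of all probe sets, every probe set on its own, only the 6 arrays of both groups, a replicate block, a variance trend, no minimum fold, a test against a 1.5-fold change, and leaving out each array.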

Additional observations from a re-analysis of the deposited data

How the results depend on the processing

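Without a minimum fold, 6294 genes were higher and 5081 lower in yNSCs, and with each probe set on its own 5999 and 3513 of 34945 probe sets. Leaving out any of the 9 arrays gave 3292 to 3435 genes higher and 1991 to 2017 lower. Subtracting array medians gave 2739 and 2457, another quantile normalization 2726 and 2334, a filter that dropped the lowest 40% of genes by mean 3078 and 1411 of 10916, the mean of all probe sets 2743 and 1716, and a test against a 1.5-fold change 3624 and 2169. Using only the 6 arrays, or a variance trend with a robust prior, gave 3336 and 1993 as reported. The replicate letters did not pair the arrays (deviations of equal letters correlated at 0.10, -0.059 and 0.087, and 1 of 3 yNSC arrays correlated best with its own letter), and with the letter as a replicate block 3336 genes were higher and 1993 lower, with all 5329 calls kept. The replicate block, the fit of 6 arrays, the variance trend and leaving out an NSC array keep every difference between yNSCs and neurons as it was. Under these settings a call could change only through its p-value, so equal counts say little. Of 249 genes named by rule and called, 217 kept their call under every alternative, and of 79 not called 14 passed under at least 1. With the mean of all probe sets 2 genes changed sign, Shmt1 (1.03, adjusted p = 3.5e-05) and Tspan8 (0.02, adjusted p = 0.88), which have probe sets called in opposite directions. Of 82 list counts 46 stayed within 1.5 times of the reported count under every alternative other than no minimum fold, and 7 moved by more when 1 array was left out. Genes near background in a group have folds of uncertain size.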
